A study of Sus scrofa with 6 samples.

Results

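Type I interferon-stimulated genes were described in 6 single-cell RNA sequencing libraries and, within them, in cell types gated by marker genes. The list of 41 mouse gene symbols was matched exactly to the gene names of the deposited matrices. Of these, 39 of 41 matched 1 feature each, among 32285 gene features in all. Mx1 and Mx2 matched none and were not analysed here. Counts are UMIs (unique molecular identifiers, tags that count an RNA molecule once). Ifi44l had no UMI in macrophage or monocyte-gated cells of any library, so that 38 members carry the comparisons there.

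By the labels, the study took unsorted cells of skin from red duroc pigs after irradiation and Deferoxamine (DFO, an iron chelator) given by patch. The groups were normal skin without treatment, irradiated skin, and 4 schedules of a 1 mg DFO TDDS patch in irradiated animals. The schedules were pretreatment, 2 weeks ahead of the radiotherapy, continuous treatment for 18 weeks, acute treatment with 12 weeks of recovery, and chronic treatment at 4 weeks after recovery. Each group had 1 library, with no age, sex or number of animals given. Therefore no test between groups was possible, and intervals in brackets are exact 95% intervals for counting error alone, which leave out any spread between animals.

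The files did not match these labels. All genes carried mouse Ensembl identifiers, and every library but pretreatment and continuous came with 4 hashtag antibodies against mouse. The series title speaks of an anti-JUN therapeutic and of adhesions. Libraries are therefore named by their labels only, and nothing below is ascribed to irradiation or the patch. The sources used here do not link the tags to animals, and cells were not assigned by tag. The strongest tag held a median of 43.9% to 81.1% of a barcode's raw tag counts. Tag totals within a library were unequal, and the raw share does not correct for this. Whether the tags can separate cells was therefore not tested. The library labelled pretreatment stood apart in depth and composition. It held 1499 kept cells at a median of 9651 UMIs, against 8916 to 24132 cells at medians of 1385 to 3267 in the other 5, and only 21 of its cells passed the neutrophil gate. Libraries shared between 3 and 153 barcodes per pair.

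Type I interferons, chiefly interferon alpha and beta, are secreted when cells sense foreign or misplaced nucleic acid. They bind a common receptor, and the kinases JAK1 and TYK2 then activate transcription factors that switch on interferon-stimulated genes. The products of these genes sense, bind or degrade viral RNA, block virus entry and release, and feed back on the pathway. In skin, macrophages, dendritic cells and keratinocytes are known sources of such interferons, and injured tissue can show the response without infection.

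A cell passed a gate when at least 3 markers of a class were detected and at least 2 more than of any other class. Macrophage or monocyte-gated cells numbered 2367 for normal, 4644 for irradiated and 335 for pretreatment. Continuous followed with 1611, acute with 6375 and chronic with 2566. Lists of 6 values keep this order, and lists of 5 leave out pretreatment. The neutrophil gate held 6817, 8741, 3538, 6837 and 2403 cells. Fibroblast-gated cells numbered 2159, 1549, 557, 601, 1944 and 377. T cell, endothelial cell and keratinocyte gates were smaller, the last with 65 to 273 cells per library although the label is skin. Of macrophage or monocyte-gated cells 16.7% to 27.2% lay at the limit of the gate. Over all cells of this gate the median cell showed 6 to 8 of its 10 own markers. It showed 1 to 3 neutrophil markers, 0 to 2 fibroblast markers and 0 markers of T cells, endothelial cells and keratinocytes. Summed neutrophil markers in that gate came to 4753, 4218, 143, 1555, 4272 and 2646 CPM (counts scaled to the same fixed total of gene UMIs in every library), so RNA of neutrophils differed between libraries. Its part in the results below was examined by leaving out cells with a UMI of the neutrophil genes S100a8 or S100a9.

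Over all kept cells the members summed to 4824, 7139, 3762, 12019.9, 6094 and 6412 CPM. In the macrophage or monocyte gate the sums were 4238, 7254, 3507, 13041, 6454 and 6499.6 CPM. Neutrophil-gated cells gave 7403, 9508, 19984, 8167 and 11607 CPM. Fibroblast-gated cells gave 4130.5, 5604, 4887, 8244, 5043 and 7650.1 CPM. Continuous was thus the highest library in all 3 gates and normal or pretreatment the lowest. T cell-gated cells, at 1140.2 to 2160 CPM, and keratinocyte-gated cells, at 990.4 to 1526 CPM, stood below the other gates in every library. A few genes carried these sums: 4 members held 42.4% to 79.8% of member UMIs in the neutrophil, macrophage or monocyte and fibroblast gates, mostly Ifitm1, Ifitm2, Ifitm3 and Ifi27l2a. The sum therefore mainly describes those genes, and the median over members is used for the list. Cells of all kinds together gave 30 of 38 members at least 1.5-fold higher and 0 lower in irradiated than in normal, beside 5% and 15.1% of all genes. Against irradiated, pretreatment had 0 higher and 32 lower (41.9% and 17% of all genes), continuous 10 and 2 (19.8% and 13%), acute 0 and 3 (5.25% and 3.95%) and chronic 0 and 15 (16.6% and 10.7%). These counts mix the libraries' unlike shares of cell types, so the gates are taken in turn.

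**Figure D1:**
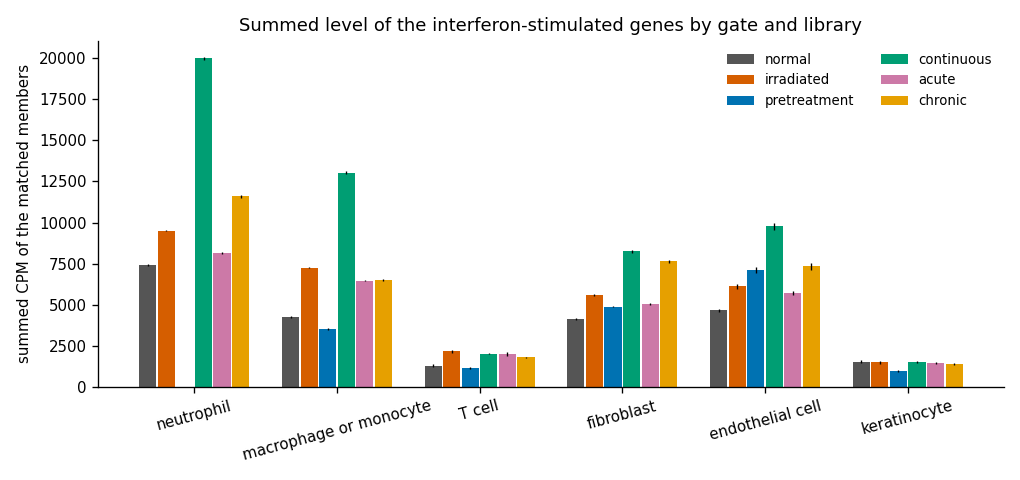
Summed level of the interferon-stimulated genes in CPM of gene UMIs (vertical axis) for each gate (horizontal axis), with a bar per library and exact 95% counting intervals. In the macrophage or monocyte gate the library labelled continuous stood at 13041 CPM and pretreatment at 3507 CPM.

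Within the macrophage or monocyte gate, the transcription factors come first. Irf7 (ENSMUSG00000025498), which drives the later wave of interferon transcription, stood at 61.7, 222.7, 24.3, 352.5, 224.4 and 197.6 CPM. Normal and pretreatment were the low libraries, and no counting interval of these 2 reached those of the other 4. Stat2 (ENSMUSG00000040033), part of the transcription complex under the receptor, was at 36.3, 72.9, 38, 106.04, 57.6 and 52.1 CPM. Its normal and pretreatment levels were alike. Irf9, the DNA-binding part of the same complex, ranged only from 30.0 CPM in pretreatment to 70.5 in irradiated.

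Among the nucleic acid sensors, Zbp1 (ENSMUSG00000027514), which binds nucleic acid in the left-handed Z form, was at 53.8, 89.3, 49.4, 218.5, 72.7 and 102.5 CPM. Continuous was the high library, and normal and pretreatment were low. The RNA helicases Ddx58 and Ifih1 ranged from 15.8 CPM (pretreatment) to 61.4 (continuous) and from 29.8 (pretreatment) to 119.1 (irradiated). Dhx58, a helicase that tunes both, ran from 6.33 to 40.3 CPM. The DNA-binding family members Ifi204 and Ifi205 had their lowest values in pretreatment, 123.1 and 10.1 CPM, and their highest in different libraries, 405.6 in continuous and 176.7 in irradiated.

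Isg15 (ENSMUSG00000035692), a ubiquitin-like protein attached to other proteins, was at 229.6, 480.6, 117.8, 699.3, 345.2 and 331.6 CPM. Usp18, which removes it and dampens the receptor, ran from 7.10 in normal to 50.1 in continuous, and Herc6, which attaches it in mouse, from 11 in pretreatment to 45.0 in continuous. Of the IFIT proteins, which bind viral RNA, Ifit3 (ENSMUSG00000074896) was at 6.78, 17.8, 3.80, 62.6, 18.7 and 13.6 CPM. Ifit1 followed another order, with 48.7, 153.2, 7.81, 130.0, 98.9 and 49.8 CPM, highest in irradiated. Ifit3 and Ifit3b, like the Oas1a and Ifi204 families, have close relatives in the genome between which reads can be lost or split, so their values are uncertain.

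Enzymatically active members of the OAS family make the second messenger that activates an RNA-degrading enzyme. Oasl2 (ENSMUSG00000029561) was at 53.0, 137.0, 23.4, 157.1, 110.2 and 81.7 CPM, and Oasl1, which limits translation of Irf7 in mouse, at 139.7, 403.9, 29.1, 158.4, 254.2 and 153.0 CPM. Oasl1 was highest in irradiated, where continuous was close to normal. Rsad2 (ENSMUSG00000020641), encoding viperin, which yields a nucleotide that stops viral RNA synthesis, was at 151.5, 578.0, 26.8, 364.2, 331.0 and 157.0 CPM. As a ratio of the highest to the lowest library, its range was the widest of the members named in every comparison. Its genomic neighbour Cmpk2, a nucleotide kinase, ran from 2.53 CPM in pretreatment to 40.6 in continuous.

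Membrane proteins followed a different order. Ifitm3 (ENSMUSG00000025492), which hinders fusion of virus with the endosome, was at 740.4, 1122, 592.3, 2819, 1140.3 and 1417 CPM, with chronic above irradiated. Bst2 (ENSMUSG00000046718), or tetherin, which holds budding virus at the cell surface, was at 186.7, 358.4, 157.3, 595.2, 312.1 and 379.5 CPM. The small membrane protein gene Ifi27l2a (ENSMUSG00000079017) was at 495.7, 691.5, 1148, 2294, 657.9 and 1058 CPM. Here pretreatment was the second highest library, while it was the lowest for Irf7, Isg15, Rsad2 and Ifitm3. Across all 38 members with enough UMIs, continuous was the highest library for 32 and irradiated for 6, whereas pretreatment was the lowest for 31 and normal for 7. The members highest in irradiated were Rsad2, Oasl1, Ifit1, Ifih1, Ifi205 and Irf9, singled out after their values were seen.

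**Figure D2:**
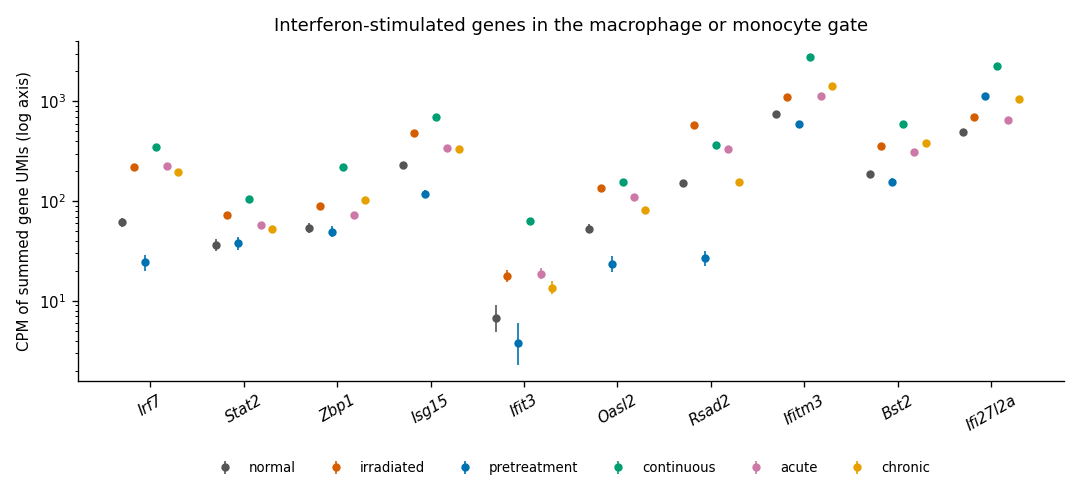
CPM of summed gene UMIs (log axis) of 10 interferon-stimulated genes in the macrophage or monocyte gate, with a point per library and exact 95% counting intervals. Rsad2 was highest in irradiated (578.0 CPM) and Ifitm3 in continuous (2819 CPM).

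The first comparison sets the library labelled irradiated against normal. Among macrophage or monocyte-gated cells all 38 members but Ifitm1 had a ratio above 1: the median log2 ratio was 1.13, and 33 members were at least 1.5-fold higher and 0 lower. Of all genes tested, 7.96% were at least 1.5-fold higher and 8.8% lower. The 3 highest members were Ifi44, Ifit2 and Rsad2, at 4.17-fold (2.85 to 6.32), 3.93-fold (3.10 to 5.04) and 3.81-fold higher (3.57 to 4.08). Irf7 was 3.61-fold higher (3.25 to 4.02), Ifit3 2.62-fold (1.89 to 3.72), Oasl2 2.59-fold (2.30 to 2.91), Isg15 2.09-fold (1.98 to 2.22) and Stat2 2.01-fold (1.74 to 2.33). Bst2, at 1.92-fold (1.80 to 2.05), Zbp1, at 1.66-fold (1.47 to 1.88), and Ifitm3, at 1.51-fold (1.47 to 1.57), were closer to the threshold, and Ifi27l2a was 1.39-fold higher (1.34 to 1.45). The 3 lowest were Ifitm1, 1.20-fold lower (1.16 to 1.25), Ifitm2, 1.16-fold higher (1.12 to 1.21), and Oas1a, 1.32-fold higher (0.958 to 1.85) on 141 against 53 UMIs. By role, all 4 IFIT genes, all 6 sensors and all 3 transcription factors passed the threshold upward, but only 2 of 4 membrane restriction factors did.

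The same comparison gave a median of 1.02 in the neutrophil gate, where 33 of 38 members were higher and 0 lower (11.9% and 10.6% of all genes). Ifit3 was 5.86-fold higher there (4.29 to 8.20), Ifit2 4.92-fold (3.88 to 6.31) and Phf11b 4.01-fold (2.61 to 6.39), and Ifitm1 was again the lowest, 1.19-fold lower (1.18 to 1.21). Fibroblast-gated cells had a median of 0.77 with 24 of 38 higher and 0 lower (6.27% and 9.03%). Their highest members were Ifi44, 4.18-fold higher (3.51 to 5.01), and the OAS genes Oas3, 4.11-fold (2.95 to 5.83), and Oas1a, 3.84-fold (2.5 to 6.08). All 5 OAS members were higher in fibroblasts. Ifi27l2a, Ifitm2 and Slfn5 were close to normal there, at log2 ratios of -0.10, -0.067 and -0.054. In endothelial cells the median was 0.53 with 16 of 34 higher and 0 lower (10.3% and 10.1%), and Irf7 was 4.09-fold higher (2.92 to 5.78). T cells gave 0.59, with 14 of 28 higher and 0 lower (9.41% and 10.2%). Irf7 was 6.59-fold higher there (3.07 to 16.2) on 44 against 8 UMIs and Rsad2 5.39-fold (3.10 to 9.93). The keratinocyte gate, with 19 testable members, gave 0.73 but turned to -0.040 with members of at least 100 UMIs, so no direction is given for it. Rsad2 was 7.20-fold higher in keratinocytes (2.25 to 36.7) on 32 against 3 UMIs, whereas Ifi27l2a was 3.38-fold lower (2.43 to 4.74). That Ifi27l2a ratio rests on 54 UMIs in 32 of 174 irradiated cells against 123 UMIs in 15 of 141 normal cells. The share of cells with an Ifi27l2a UMI went the other way, 18.4% against 10.6%, and the counting interval leaves out such clustering in few cells. Erythroid-gated cells, available in 3 libraries, gave 0.90 with 12 of 16 members higher and 0 lower (20.7% and 12.5%). Of these cells 54.2% in normal and 45.1% in irradiated lay at the limit of the gate. Their S100a8 stood at 7144 CPM in normal and 2577 CPM in irradiated, so RNA of neutrophils differed there as well.

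Pretreatment against irradiated gave the opposite picture in macrophage or monocyte-gated cells. The median log2 ratio was -1.73, with 1 member higher and 34 of 38 lower, while 27.1% of all genes were higher and 24.3% lower. Rsad2 was 21.6-fold lower (18.1 to 25.9) and Ifit1 19.6-fold lower (14.2 to 27.9), on 127 and 37 UMIs. Ifit3b, on 1 against 74 UMIs, was 27.5-fold lower with an interval from 4.78 to 1099. Irf7 was 9.17-fold lower (7.61 to 11.15), Oasl2 5.84-fold (4.82 to 7.14), Ifit3 4.68-fold (2.89 to 8.04) and Isg15 4.08-fold lower (3.74 to 4.46). Bst2 was 2.28-fold lower (2.11 to 2.46), Stat2 1.92-fold (1.63 to 2.26), Ifitm3 1.89-fold (1.82 to 1.97) and Zbp1 1.81-fold lower (1.57 to 2.09). The member that was higher was Ifi27l2a, 1.66-fold (1.60 to 1.72), and Oas1a (1.3-fold, 0.959 to 1.75) and Ifitm2 (1.04-fold, 0.996 to 1.08) were the next. The median was -2.40 in cells of neither macrophage sub-gate described below.

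In the other gates of pretreatment, fibroblasts had a median of -0.78 with 1 of 38 higher and 21 lower (21.9% and 21.5% of all genes). Ifi44 was 26.6-fold lower (16.7 to 45.1) in them, Oasl1 22.1-fold (12.8 to 42.0) and Oas3 12.3-fold lower (6.69 to 25.1), but Ifitm2 was 1.59-fold higher (1.54 to 1.65). T cells gave -1.24 (3 of 25 higher, 16 lower, 15.5% and 29.1%), a median that ran from -2.72 with cells thinned to 1000 UMIs to -0.44 with members of at least 100 UMIs. Ifitm1 had 0 UMIs in the 93 pretreatment T cells against 188 in irradiated, at least 55.4-fold lower when set at the limit of 3 UMIs for the library. Ifi205 and Oasl1 also had 0 there, and the median was the same with these 3 at that limit. S100a8 in T cell-gated cells stood at 4.07 CPM in pretreatment and 578.1 CPM in irradiated, so RNA of neutrophils differed in this gate. Its part in the Ifitm1 ratio was not tested. Endothelial cells gave -0.52 (3 of 33 higher, 16 lower, 18.4% and 28.2%), which turned to 0.15 with every cell thinned to 1000 UMIs. Ifitm3 and Ifitm2 were 1.76-fold (1.65 to 1.88) and 1.98-fold higher (1.78 to 2.20) in endothelial cells, while Oasl1 was 7.29-fold lower (2.87 to 23.7). The depth of pretreatment, a median of 13574 UMIs per macrophage or monocyte-gated cell against 2313.5 in irradiated, and its near lack of neutrophils moved with these values. In macrophage or monocyte-gated cells without an S100a8 or S100a9 UMI the median was -1.73 as well.

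**Figure D3:**
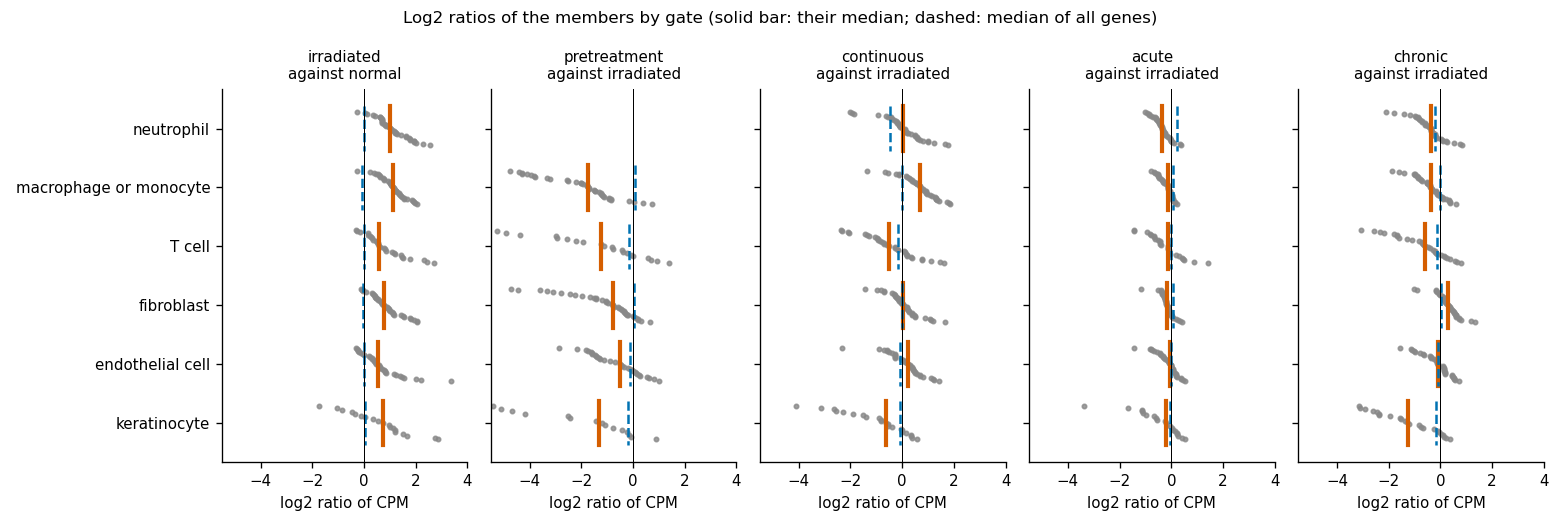
Log2 ratio of CPM (horizontal axis) of each interferon-stimulated gene, with a panel per comparison and a row per gate; grey points are members with UMIs in both libraries, solid bars their median and dashed bars the median of all genes tested. Irradiated against normal lies above 0 in the macrophage or monocyte gate (median 1.13) and pretreatment against irradiated below 0 (median -1.73).

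Continuous against irradiated compared the 2 libraries with the highest summed member level in the macrophage or monocyte gate. The median log2 ratio in macrophage or monocyte-gated cells was 0.71, with 22 of 38 members higher and 2 lower, where 16.5% of all genes were higher and 18% lower. Isg20, an RNA exonuclease, was 3.61-fold higher (3.07 to 4.26), Ifit3 3.52-fold (3.01 to 4.13) and Ifi27l2a 3.32-fold (3.23 to 3.40). Ifitm3 was 2.51-fold (2.46 to 2.57), Zbp1 2.45-fold (2.27 to 2.64), Bst2 1.66-fold (1.60 to 1.73) and Irf7 1.58-fold higher (1.5 to 1.67). Isg15 and Stat2, at 1.46-fold (1.40 to 1.51) and 1.45-fold (1.32 to 1.60), and Oasl2, at 1.15-fold (1.07 to 1.23), stayed under the threshold. On the other side, Oasl1 was 2.55-fold lower (2.40 to 2.71), Rsad2 1.59-fold (1.52 to 1.66) and Ifi205 1.45-fold lower (1.34 to 1.56). All 4 membrane restriction factors were higher, against 2 of 5 OAS genes and 1 of 3 transcription factors. The median was 0.46 in cells without an S100a8 or S100a9 UMI and 0.29 in cells of neither macrophage sub-gate. Median depth in the gate was 4998 UMIs in continuous and 2313.5 in irradiated, and Col1a1 stood at 39.2 and 217.8 CPM. The part of the Col1a1 difference was not tested.

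Neutrophil-gated cells of continuous gave a median of 0.037 with 8 of 38 members higher and 5 lower. This stands beside a shift of all genes, whose median was -0.47 with 7.77% higher and 43.8% lower; relative to that shift the members' median was 0.51. Ifitm2, Ifitm1 and Isg20 were 3.39-fold (3.32 to 3.45), 3.11-fold (3.08 to 3.15) and 2.36-fold higher (2.21 to 2.52). Ifi205 was 4.09-fold (3.50 to 4.81), Oasl1 3.82-fold (3.42 to 4.28) and Ifi44 3.63-fold lower (2.23 to 6.19). In this gate the neutrophil gene S100a8 stood at 80961 CPM in continuous and 35366 CPM in irradiated. RNA of other cell types differed as well: Col1a1 was at 63.5 and 318.9 CPM, C1qa at 43.8 and 202.7, and Hbb-bs at 2176 and 950.3. The part of these differences in the member ratios was not tested. Fibroblasts had a median of 0.037 (5 of 38 higher, 5 lower, 13.6% and 15.6% of all genes), which turned to -0.079 with cells thinned to 1000 UMIs. Ifit3 was 3.11-fold higher (2.62 to 3.72) and Oasl1 2.72-fold lower (2.16 to 3.46) there. Endothelial cells gave 0.23 (8 of 35 higher, 4 lower, 15.8% and 22.2%), or -0.073 without the 10% of cells with most UMIs, with Ifit2 2.65-fold (1.56 to 4.69) and Ifitm3 2.33-fold higher (2.19 to 2.47). T cells gave -0.52 (5 of 33 higher, 16 lower, 13.6% and 23%), or 0.15 with thinned cells, with Rsad2 4.98-fold lower (3.44 to 7.25) and Isg20 2.78-fold higher (1.40 to 6.28). Without thinning, the ratio of Oasl1 was below 1 in all 6 gates.

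Acute against irradiated had the median closest to 0 of the 5 comparisons in the macrophage or monocyte gate. The macrophage or monocyte gate had a median of -0.13, with 0 of 38 members higher and 3 lower, beside 5.41% and 3.48% of all genes. The 3 lower members were Rsad2, 1.75-fold (1.68 to 1.81), Oasl1, 1.59-fold (1.52 to 1.66), and Ifit1, 1.55-fold lower (1.45 to 1.66). Isg15 was 1.39-fold (1.34 to 1.45), Stat2 1.27-fold (1.15 to 1.39), Oasl2 1.24-fold (1.16 to 1.33), Zbp1 1.23-fold (1.13 to 1.34) and Bst2 1.15-fold lower (1.10 to 1.20), all under the threshold. The ratios of Irf7, Ifitm3 and Ifit3 had intervals that span 1, at 1.01 (0.958 to 1.06), 1.02 (0.994 to 1.04) and 1.05 (0.879 to 1.26), and Ifi27l2a was 1.05-fold lower (1.02 to 1.08). Ifitm2, Ddx58 and Xaf1 were the highest, at 1.18-fold (1.14 to 1.21), 1.12-fold (0.982 to 1.27) and 1.11-fold (0.981 to 1.26). Neutrophil-gated cells gave -0.36 with 0 higher and 9 of 38 lower, beside 12.6% and 3.64% of all genes, whose median was 0.21. Herc6 was 2.03-fold (1.78 to 2.32), Ifit2 1.91-fold (1.62 to 2.26) and Parp14 1.83-fold lower (1.71 to 1.96) in these neutrophils. Fibroblasts gave -0.16 with 1 of 38 lower, namely Oas1a at 2.26-fold (1.55 to 3.38), beside 5.84% higher and 3.35% lower of all genes. T cells gave -0.14 (2 of 27 higher, 8 lower, 9.14% and 9.6% of all genes). Endothelial cells gave -0.043 (0 of 36 higher, 5 lower, 7.66% and 7.69%), a median that lay between -0.14 and 0.054 over other settings, with Herc6 2.71-fold lower (1.55 to 4.92). Rsad2 and Ifit1, lower in acute macrophages, were 1.34-fold (1.21 to 1.48) and 1.26-fold higher (1.13 to 1.41) in acute fibroblasts, both under the threshold.

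Chronic against irradiated gave medians of unlike sign in macrophage or monocyte-gated cells and in fibroblasts, a difference that was not tested. The macrophage or monocyte gate had a median log2 ratio of -0.37, with 1 of 38 members higher and 12 lower, beside 9.38% and 11.4% of all genes. Rsad2 was 3.68-fold lower (3.51 to 3.87), Ifit1 3.07-fold (2.81 to 3.36), Oasl1 2.64-fold (2.51 to 2.78) and Oasl2 1.68-fold lower (1.55 to 1.81). Isg15, Stat2, Ifit3 and Irf7 were 1.45-fold (1.39 to 1.51), 1.40-fold (1.27 to 1.55), 1.31-fold (1.07 to 1.60) and 1.13-fold lower (1.07 to 1.19). Ifi27l2a was 1.53-fold (1.49 to 1.57), Oas1a 1.29-fold (1.03 to 1.61), Ifitm2 1.29-fold (1.25 to 1.32), Ifitm3 1.26-fold (1.24 to 1.29), Zbp1 1.15-fold (1.06 to 1.24) and Bst2 1.06-fold higher (1.02 to 1.10). In fibroblasts the median was 0.30, with 9 of 38 higher and 2 lower, beside 13% and 10.7% of all genes, and it turned to -0.11 in fibroblasts without an S100a8 or S100a9 UMI. Ifit3 was 2.56-fold (2.07 to 3.16), Ifi27l2a 2.28-fold (2.18 to 2.39) and Rtp4 1.74-fold higher (1.44 to 2.09) in fibroblasts, and Oasl1 and Rsad2 were 2.00-fold (1.53 to 2.66) and 1.89-fold lower (1.57 to 2.31). Chronic was the highest of the 6 libraries for 22 of 38 members in fibroblasts, and for 0 of 38 in the macrophage or monocyte gate. S100a8 in fibroblasts stood at 2.81% of its neutrophil level in irradiated and 0.394% in chronic.

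The remaining gates of chronic were lower or close to irradiated. Neutrophils gave -0.35 with 2 of 38 higher and 14 lower, beside 9.29% and 26.1% of all genes, whose median was -0.20. Ifitm1 and Ifitm2 were 1.79-fold (1.77 to 1.82) and 1.71-fold higher (1.67 to 1.76) there, and Ifi44, on 9 against 99 UMIs, was 4.25-fold lower (2.15 to 9.57). S100a8 in this gate stood at 56414 CPM in chronic and 35366 CPM in irradiated, and Col1a1 at 42.5 and 318.9 CPM. The part of these differences in the neutrophil ratios was not tested. T cells gave -0.61 (2 of 31 higher, 16 lower, 10.1% and 20.1%), with Oasl1 8.34-fold (3.73 to 19.9), Rsad2 6.0-fold (4.13 to 8.79) and Ifih1 5.00-fold lower (2.38 to 10.7). That T cell median ran from -0.69 to -0.07 over other settings. Endothelial cells gave -0.099 (1 of 34 higher, 8 lower, 11.7% and 18.4%), or 0.11 with members of at least 100 UMIs, and Ifitm3 was 1.63-fold higher (1.52 to 1.74). Pretreatment, continuous, acute and chronic are all set against the same irradiated library, so these ratios share its values.

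Keratinocytes in the 4 comparisons with irradiated had medians of -1.33 (pretreatment), -0.64 (continuous), -0.21 (acute) and -1.25 (chronic) over 16 to 24 members. Each turned above 0 with cells thinned to 1000 UMIs, so these medians carry no direction. Ifit1 in keratinocytes had 20 UMIs in irradiated, 2 in normal, 0 for pretreatment, 3 for continuous, 2 for acute and 6 for chronic, and Ifitm3 was 1.31-fold higher (1.20 to 1.43) in continuous and 1.28-fold higher (1.17 to 1.40) in chronic.

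Members differed in the gate where their CPM was highest. Endothelial cells had the highest CPM in 6 of 6 libraries for 7 members, namely Ddx58, Eif2ak2, Ifitm3, Bst2, Ifi44, Xaf1 and Slfn5. Slfn5 exceeded the next gate between 2.26-fold and 4.82-fold, and Ifi44 between 1.76-fold and 18.5-fold. Eif2ak2 exceeded it by only 1.09-fold in irradiated and 1.05-fold in continuous. Endothelial levels of Bst2 were 555.2, 737.7, 457.1, 1038, 547.0 and 829.7 CPM. The macrophage or monocyte gate was highest in all 6 libraries for Oasl1, Oas1a and Ifi27l2a, with Oasl1 2.57-fold to 4.65-fold above the next gate. Ifi27l2a led by only 1.02-fold in normal and in chronic, and Oas1a by 1.03-fold in irradiated. Ifi205 was highest in fibroblasts in all 6. Neutrophils, compared in 5 libraries, were highest in each of these for 7 members: Herc6, Oas3, Oasl2, Isg20, Ifitm1, Ifitm2 and Trim30a. Ifitm1 was 5.46-fold to 14.8-fold above the next gate in those 5, whereas Herc6 led by only 1.02-fold in normal. Ranks with margins this small do not set the gates apart. The macrophage or monocyte level of Ifitm1 stood at 17.7%, 17.6%, 10.5%, 18.3% and 6.76% of its neutrophil level in the 5 libraries, where S100a8 stood at 4.47%, 3.72%, 0.52%, 4.61% and 1.46%. T cells and keratinocytes were the highest gate in at least 4 libraries for 0 members.

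Members were detected in many cells of the gate. With each cell thinned to 500 UMIs, 24.7% of macrophage or monocyte-gated cells in normal held a UMI of at least 3 members (95% Clopper-Pearson interval 23.0 to 26.5). The share was 51.1% in irradiated (49.6 to 52.5) and 17.0% in pretreatment (13.1 to 21.5). Continuous had the highest share, 71.9% (69.7 to 74.1), while acute had 43.5% (42.3 to 44.7) and chronic 41.8% (39.9 to 43.7). No kept cell was shallower than this depth. Without thinning the shares were 77.8%, 92.4%, 95.2%, 98.6%, 84.4% and 93.7%, which mix in the depth of the cells. In neutrophils the thinned shares were 33.8%, 58.6%, 79.7%, 47.2% and 46.3%. Ifitm1, Ifitm2 and Ifitm3 alone can meet this criterion. Before thinning they had a UMI in 97.5%, 97.8% and 92.3% of continuous neutrophils. With at least 5 members the thinned neutrophil shares were 7.07%, 22.9%, 37.4%, 14.3% and 17.1%. Fibroblasts gave 22.2%, 35.1%, 21.4%, 45.4%, 28.7% and 39.3%. In T cells the shares stayed between 2.15% and 8.75%, at median depths of 1095 to 6012 UMIs before thinning. The tenth of macrophage or monocyte-gated cells with most member UMIs at this depth held 25.8% to 32.8% of them over the 6 libraries.

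**Figure D4:**
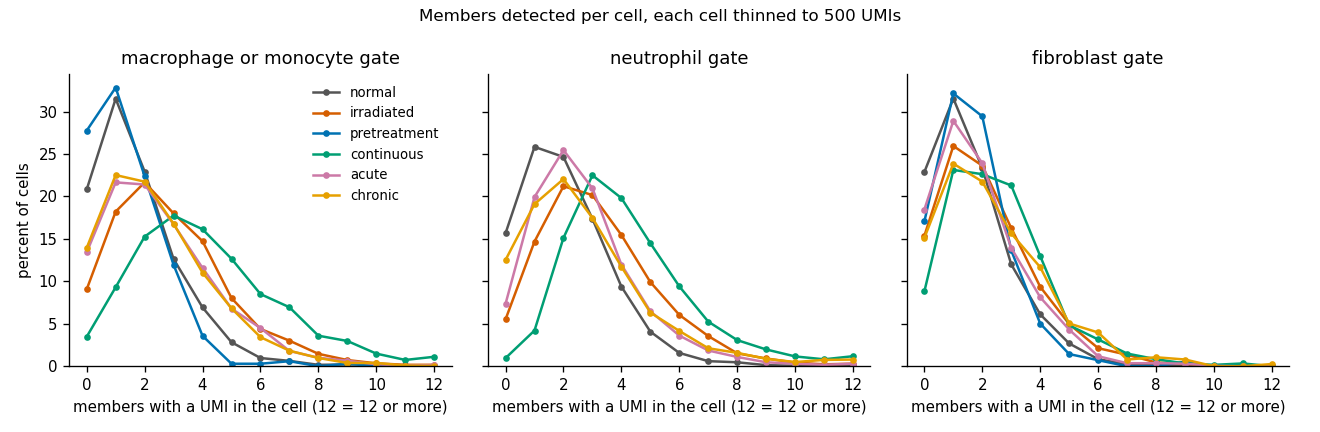
Share of cells (vertical axis, percent) by the number of interferon-stimulated genes with a UMI in the cell (horizontal axis), each cell thinned to 500 UMIs, with a line per library and a panel per gate. In the macrophage or monocyte gate 3.48% of cells in continuous and 27.8% in pretreatment held no member.

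Inside the macrophage or monocyte gate, cells were split by monocyte genes (such as Ly6c2 and Plac8) and resident macrophage genes (such as Folr2 and Cd163). Monocyte cells made up 40.4%, 49.7%, 22.1%, 48.5%, 48.7% and 48.4% of the gate and resident cells 7.65%, 5.43%, 31.3%, 17.8%, 3.76% and 7.91%. Member sums were 4860.5, 7881, 4174, 15180.0, 7220.0 and 7227 CPM in monocyte cells and 4105, 6660, 4304, 11579, 6615 and 6551 CPM in resident cells. The order of libraries was the same at its top in both, with continuous above irradiated. Irradiated against normal gave medians of 1.06 (32 of 38 higher, 0 lower; 9.3% and 11.06% of all genes) in monocyte cells and 0.86 (21 of 35 higher, 1 lower; 9.76% and 11.4%) in resident cells. Pretreatment against irradiated gave -2.07 (1 higher, 33 lower of 38; 25.9% and 31.3%) and -1.22 (2 higher, 29 lower of 35; 22.4% and 19.1%). Continuous gave 0.75 in monocyte cells (22 higher, 3 lower of 38; 15.3% and 20.6%) and 0.66 in resident cells (21 higher, 3 lower of 38; 18.3% and 16.9%). Acute gave -0.10 (1 higher, 5 lower of 38; 6.86% and 3.78%) and -0.077 (2 higher, 3 lower of 35; 8.56% and 9.48%). Chronic gave -0.41 in monocyte cells (1 higher, 15 lower of 38; 11.9% and 12.3%) and -0.062 in resident cells, where 6 were higher and 5 lower of 37, close to the 12.7% and 10.7% of all genes. Cells of neither sub-gate gave -0.42 in chronic (1 higher, 14 lower of 38, beside 10% and 12.5% of all genes). Cells with both sets of markers gave -0.29 (0 higher, 12 lower of 37, beside 13.1% and 11.7%). The lower counts of chronic in the whole gate were thus absent only in resident cells. They were seen in monocyte cells, in cells of both sub-gates and in cells of neither, and the differences were not tested.

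Interferon genes themselves were sparse. Of 20 type I and III interferon genes, all matched to features, 4 to 7 had a UMI in any library, and the totals were 64, 378, 19, 78, 186 and 47 UMIs. Ifnb1, interferon beta, held 34, 349, 3, 62, 160 and 32 of these. Macrophage or monocyte-gated cells had Ifnb1 at 20, 187, 3, 48, 112 and 29 UMIs, or 3.15, 14.7, 0.633, 5.69, 7.98 and 2.23 CPM. It was 4.65-fold higher in irradiated than in normal (2.92 to 7.78). Compared with irradiated it was 2.58-fold lower in continuous (1.87 to 3.62), 1.84-fold in acute (1.45 to 2.34), 6.57-fold in chronic (4.43 to 10.1) and, on 3 UMIs, 23.1-fold lower in pretreatment (7.79 to 113). Continuous, the library with the highest member levels, thus had less Ifnb1 than irradiated. Irradiated neutrophils also held 50 Ifnb1 UMIs, against 1 in normal. Each of 13 genes named Ifna had at most 2 UMIs in a library, Ifnab had 2 to 19, and the keratinocyte interferon Ifnk had 4 to 10.

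An Ifnb1 UMI was found in 94 of 4644 macrophage or monocyte-gated cells in irradiated, 2.02% (1.64 to 2.47). It was found in 0 of 248 endothelial cells there, with an exact interval of 0% to 1.48%. The limit of 3 cells would put that endothelial share at up to 1.21%. A cell without a UMI may still express the gene. Median depths of these gates were 2313.5 and 2318 UMIs. Elsewhere the share in this gate was 0.422% in normal, 0.299% in pretreatment (1 cell) and 1.24% in continuous. It was 1.18% in acute and 0.663% in chronic. The most Ifnb1 UMIs in a cell was 27, in irradiated. Cells with Ifnb1 were deeper, at a median of 3326 against 2291 UMIs in irradiated. In these irradiated cells Rsad2 stood at 2549 CPM, against 522.6 in cells without Ifnb1. Ifit1 was at 1071 against 127.4 CPM, Ifit2 at 266.3 against 42.2, Cmpk2 at 106.0 against 23.3 and Oasl1 at 1211 against 381.2. By contrast Irf7, at 246.3 against 222.0 CPM, Bst2, at 386.6 against 357.6, and Ifitm3, at 1263 against 1118, were close. Of 38 members, 15 were at least 1.5-fold higher in cells with Ifnb1 and 1 lower, beside 15.9% and 24.2% of all genes. In acute 21 were higher and 2 lower, beside 15% and 33.2%.

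Rsad2, Ifit1 and Oasl1 were also higher in cells with Ifnb1 in normal, continuous, acute and chronic. Rsad2 in cells with and without Ifnb1 was at 1058 and 146.8 CPM in normal (10 cells with), 3667 and 315.0 in continuous (20 cells), 2366 and 298.2 in acute (75 cells) and 2194 and 141.8 in chronic (17 cells). Irf7 was at 60.5 and 61.7, 177.7 and 355.1, 300.8 and 223.1, and 250.8 and 197.2 CPM in the same libraries, on both sides of equality. The neutrophil gene S100a8 was at 824.7 CPM in irradiated cells with Ifnb1 and 1331 in those without. These cells share a library and were picked by an interferon gene, so the values describe which members go with Ifnb1 and carry no test.

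**Figure D5:**
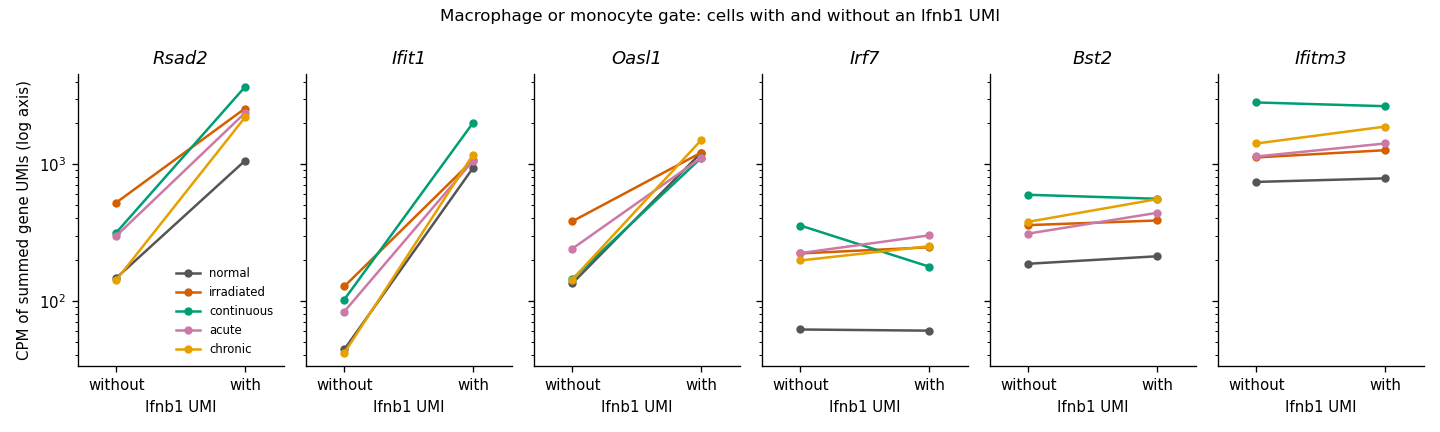
CPM of summed gene UMIs (log axis) of 6 members in macrophage or monocyte-gated cells without and with an Ifnb1 UMI, a line per library. Rsad2, Ifit1 and Oasl1 were higher in cells with Ifnb1 in all 5 libraries drawn, whereas the lines of Irf7, Bst2 and Ifitm3 were flatter, with Irf7 in continuous sloping down from 355.1 to 177.7 CPM.

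Receptors and signal transducers are the pathway's other parts, here compared between irradiated and normal in macrophage or monocyte-gated cells. There 0 of 6 interferon receptor genes and 1 of 4 signal transducers, Jak2 at 1.5-fold (1.40 to 1.62), were at least 1.5-fold higher, and 0 were lower, beside 7.96% and 8.8% of all genes. Ifnar1 and Ifnar2, the chains of the type I receptor, were at 70.3 and 172.8 CPM in normal and 81.0 and 232.6 CPM in irradiated. Of the genes that induce interferon, 4 of 14 were higher and 0 lower against the same shares, namely Irf1 at 2.00-fold (1.83 to 2.19), Myd88 at 1.66-fold (1.45 to 1.90), Tlr7 at 1.62-fold (1.35 to 1.96) and Cgas at 1.53-fold (1.24 to 1.91). In pretreatment 1 of 14, Tlr9 on 14 UMIs, was higher than in irradiated and 6 were lower, beside 27.1% and 24.3% of all genes, with the kinase gene Ikbke 12.9-fold lower (8.62 to 20.3).

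Genes known as targets of interferon gamma, a separate interferon with its own receptor, were counted the same way. Of those tested in macrophage or monocyte-gated cells, 8 of 16 were higher and 0 lower in irradiated than in normal (7.96% and 8.8% of all genes), with the chemokine Cxcl10, also a type I target, 3.46-fold (3.29 to 3.64) and the guanylate-binding protein gene Gbp5 3.0-fold higher (2.54 to 3.56). In acute against irradiated 0 of 16 were higher and 12 lower, beside 5.41% and 3.48% of all genes. Gbp4 was 3.01-fold (2.5 to 3.64) and Gbp5 2.97-fold lower (2.63 to 3.36) there. Chronic had 2 of 16 higher and 4 lower (9.38% and 11.4% of all genes): Cxcl9 was 2.78-fold higher (2.62 to 2.96) and Cxcl10 2.84-fold lower (2.74 to 2.94). In chronic fibroblasts 8 of 15 were higher and 0 lower (13% and 10.7% of all genes), among them Iigp1, 2.12-fold (1.99 to 2.25). Ifng itself had 353, 868, 50, 559, 491 and 749 UMIs over the libraries, of which 39, 105, 38, 213, 181 and 339 lay in T cell-gated cells.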

How the data were processed

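The authors deposited a matrix of counts per library, namely UMIs per gene and barcode from 10x Chromium 3' v3 libraries, whose headers name Cell Ranger 6.0.0. Cell Ranger, Seurat 5.0.1 and the pig build Sscrofa11.1 stand in the submitters' processing notes, and the mouse reference behind the mouse identifiers is not given in the sources used here. Gene UMIs per library came to 18611144 to 54966435. Cells were kept with at least 500 UMIs, 300 genes and at most 20% mitochondrial UMIs. No doublet caller was run: cells without a clear lead of 1 class, 16.1% to 31.9% of kept cells, entered no gate, and doublets of like cells remain. UMIs were summed per gate and library, without antibody tags, and scaled to CPM of gene UMIs. Ratios carry exact 95% intervals for Poisson counts, shares Clopper-Pearson intervals, both for counting error only. A gene was tested against the 1.5-fold threshold with at least 20 UMIs over both libraries, and a gate with at least 50 cells in both. The median of a list is over its members so tested. Members, markers and pathway lists were chosen with earlier results of these data known. Named in every comparison in the macrophage or monocyte gate were Isg15, Irf7, Rsad2, Ifit3, Oasl2, Zbp1, Ifitm3, Bst2, Stat2 and Ifi27l2a; beside them the 3 highest and 3 lowest members of a gate qualified, of which the smaller gates print a part, and pathway genes at least 1.5-fold apart or given as reference. The ratio step was tested on simulated data. Python 3.11.15 with numpy 2.4.6, scipy 1.17.1, pandas 2.3.3 and matplotlib 3.10.9 was used. Matched mouse sequences were not used here.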

Additional observations from a re-analysis of the deposited data

Results flagged for a closer look

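For some members a ratio of at least 1.5-fold pointed in opposite directions in different gates; these differences between gates were not tested, as each label has 1 library. In continuous against irradiated, Oas1a had a log2 ratio of 1.26 in the macrophage or monocyte gate and -0.70 in fibroblasts, Phf11b 1.31 and -0.69 in the same gates, and Bst2 0.73 in the macrophage or monocyte gate and -0.92 in neutrophils. The median of all genes in those neutrophils was itself -0.47, with 43.8% of genes at least 1.5-fold lower. In chronic against irradiated, Ifit2 was at 0.71 in fibroblasts, -0.87 in neutrophils and -1.0 in the macrophage or monocyte gate. Ifit3b was at 0.71 in fibroblasts and -0.91 in the macrophage or monocyte gate, and Rtp4 at 0.80 and -0.80.

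Hashtag antibody counts, which no comparison used, came to 33849896 UMIs in normal, 41181650 in irradiated, 30643720 in acute and 22083108 in chronic, while pretreatment and continuous held no such features. They are signal outside the gene counts, above the limit of 3 UMIs that a count of 0 allows.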

How the results depend on the processing

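Of 254 medians recomputed under other settings, 236 kept their sign; the others lay in the T cell, fibroblast, endothelial cell and keratinocyte gates. In the macrophage or monocyte gate every median did, over minimum UMIs, centring on all genes, equal weight for every cell, thinning to 1000 UMIs, stricter cells or gates, leaving out the cells with most UMIs, and cells of neither sub-gate. Ranges there were 1.01 to 1.21 for irradiated against normal, -2.40 to -1.35 for pretreatment, 0.29 to 0.75 for continuous, -0.26 to -0.13 for acute and -0.42 to -0.32 for chronic. Cells of neither sub-gate moved pretreatment to -2.40 and continuous to 0.29, and cells without an S100a8 or S100a9 UMI, a setting chosen after seeing the data, moved continuous to 0.46; the cause was not tested. At a 2-fold threshold the gate's counts in continuous were 11 higher and 1 lower (5.44% and 8.84% of all genes), in acute 0 and 0 (1.71% and 0.991%) and in chronic 0 and 5 (2.09% and 4.85%). In keratinocytes irradiated against normal turned to -0.040 with members of at least 100 UMIs and -0.077 with the stricter gate, pretreatment to 0.32 when thinned, continuous to 0.068 and 0.67, and chronic to 0.0042 and 0.26, with at least 100 UMIs and thinned; fewer members remain there. No paired analysis was possible because each label has 1 library. Depth limits the small gates: T cells, endothelial cells and keratinocytes had 16 to 36 testable members.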
